A study of Mus musculus with 4 samples.

Results

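Transcript levels of 10 genes of myostatin and TGF-β signaling were examined in skeletal muscle of old and young mice. The genes were chosen by symbol and cover ligands (Mstn, Gdf11 and Tgfb1), receptors (Acvr2a and Tgfbr1), secreted proteins of the follistatin family (Fst, Fstl1 and Fstl3) and intracellular Smads (Smad2 and Smad7). They are 10 of the 20340 gene labels with a value in every sample, and each matched 1 locus. All 10 had at least 1 FPKM in at least 2 samples and so were among the 10266 genes tested. FPKM counts sequenced fragments relative to transcript length and to all fragments mapped, so levels can be compared between genes.

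Tibialis anterior (TA) muscle, the main muscle that lifts the foot, was harvested from wild-type C57BL/6 mice for which no treatment is named, and analyzed by mRNA-seq. The Old group had an age of 20 months and the Young group an age of 3 months, with 2 samples each (Old 1, Old 2, Young 1 and Young 2). The comparison addresses which transcripts differ between young and aged muscle, in the setting of age-related muscle loss (sarcopenia). The labels do not say how many mice gave a sample or whether the 2 samples of an age came from separate mice, so the p-values measure only the spread between these samples, which may be technical.

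Myostatin is a TGF-β family ligand made mainly by muscle fibers that limits muscle mass, and animals without it are heavily muscled. It binds an activin type II receptor on the cell surface, which recruits and activates a type I receptor. The type I receptor phosphorylates Smad2 and Smad3, which enter the nucleus with Smad4 and regulate target genes. Follistatin and related proteins capture the ligands outside the cell, and the inhibitory Smad7 acts on the receptors inside it. TGF-β1 signals through its own type II receptor and the type I receptor Tgfbr1, and is known in muscle for its link to connective tissue.

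A factor of scale separated Old 1 from Old 2 and Young 2 from Young 1, which bears on every value below. It was nearly common to genes of middle level. Among genes between 10 and 30 FPKM, the median log2 ratio was 1.00 between Old 1 and Old 2 and 0.99 between Young 2 and Young 1. Across these genes the log2 ratio had a robust SD of 0.085 and 0.088 within the ages. It was 0.404 for Old 1 to Young 2 and 0.383 for Old 2 to Young 1. Old 1 and Young 2 thus shared a higher scale, and Old 2 and Young 1 a lower one. The depth of the samples is unknown, since FPKM values hold no counts. Each sample's value is therefore given, and the ratios of Old 1 to Young 2 and of Old 2 to Young 1 are given beside it as a description. This pairing was chosen after the values were seen. Muscle identity was checked with fast and general myofiber markers, of which 9 of 11 had a value. They summed to 105700 (Old 1), 16530 (Old 2), 17970 (Young 1) and 84520 (Young 2), but Ckm and Myh4 were listed at 0 in every sample and Ttn in both old samples. These sums differed more within an age than genes of 10 to 30 FPKM did, so the factor was not the same at every level. At high levels the pairs of like scale could also differ. The ratios for Old 1 to Young 2 and Old 2 to Young 1 were 1.60 and 0.754 for Tnnc2, but 1.02 and 1.03 for Pvalb.

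Gdf11, Fst and Acvr2a were higher in the old sample of both pairs of like scale, and Mstn, Tgfb1, Tgfbr1, Fstl1, Smad2 and Smad7 were lower. None of the 10 genes passed the test between the ages in the values as deposited, in which the ages overlapped for 9 of 10. In limma on log2(FPKM + 1), 0 of 10 had an adjusted p under 0.05 (adjusted p = 1.0 for each). Over all 10266 tested genes, 18 were higher (0.175%) and 13 lower (0.127%) in old muscle at that adjusted threshold. An unadjusted p under 0.05 in limma was reached by 0 of 10, and the share of all tested genes at it is not given here. The standard errors of the 10 log2 fold changes ran from 0.93 to 1.02, about as large as the factor between samples of one age. An exact permutation test (two-sided) with 2 samples against 2 cannot go below 0.333.

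**Figure D1:**
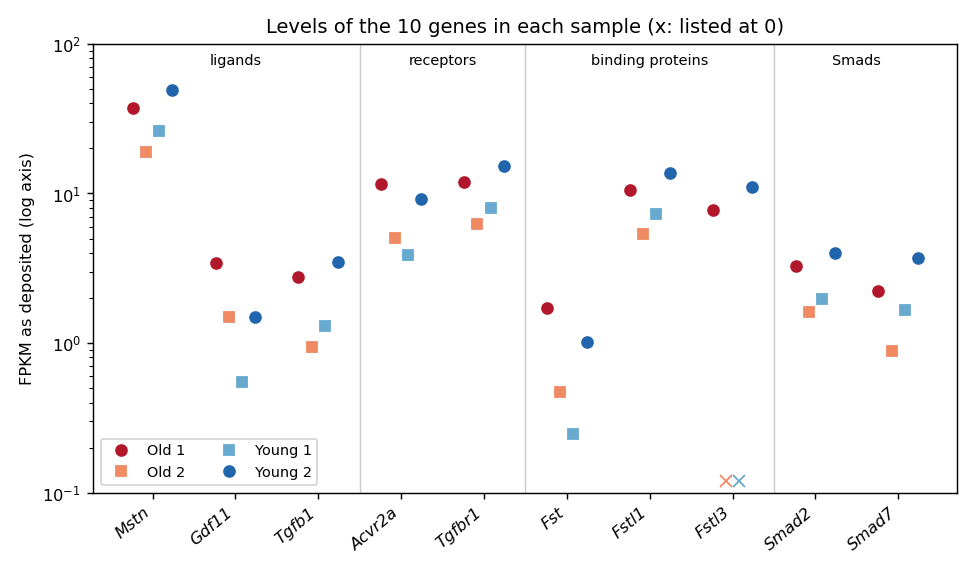
FPKM of each gene in each sample as deposited, on a log axis, with genes grouped by role and crosses for values listed at 0. Circles mark the samples with the higher scale and squares those with the lower scale. Mstn is the highest gene in every sample, and only Gdf11 has both old values above both young values.

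Mstn had the highest FPKM of the 10 genes in every sample, and Tgfbr1 the next. Mstn exceeded between 82.9% and 87.3% of the tested genes within a sample. Fst was the lowest of the genes above 0 in every sample, with 0.3% of tested genes below it in Young 2 and 17.3% in Old 2. The filter at 1 FPKM in 2 samples shapes these percents. In Young 2, a sample of the higher scale, Fst lay at that limit with 1.01 FPKM. Gdf11 was in place 6 of 10 in both old samples, 8 in Young 1 and 9 in Young 2. These places count Fstl3, which was above Gdf11 in Old 1 and Young 2 but listed at 0 in Old 2 and Young 1. The neighbors Tgfbr1 and Fstl1 differed by less than the factor between samples of one age in every sample, as did Smad2, Tgfb1 and Smad7.

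Mstn, which encodes myostatin, lies on chromosome 1 (mm10, chr1:53061663-53068079, plus strand). Its FPKM was 37.6 (Old 1) and 19.0 (Old 2) in old muscle and 26.0 (Young 1) and 49.5 (Young 2) in young muscle. The ages overlapped, with Old 1 above Young 1 and Old 2 the lowest of all. The log2 fold change (old against young) was -0.41 with an SE of 0.93. Between the samples of like scale, the ratio was 0.759 for Old 1 to Young 2 and 0.731 for Old 2 to Young 1, so Mstn was lower in the old sample of each pair. Within the ages it was 1.97 for Old 1 to Old 2 and 1.90 for Young 2 to Young 1.

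Gdf11, the closest relative of myostatin, which binds the same type II receptors and is best known for patterning the embryonic skeleton, lies on chromosome 10 (mm10, chr10:128882297-128891718, minus strand). Its FPKM was 3.44 (Old 1) and 1.503 (Old 2) in old muscle and 0.550 (Young 1) and 1.494 (Young 2) in young muscle. Both old values were above both young values, although Old 2 and Young 2 were almost equal. Gdf11 was the only gene of the 10 without overlap between the ages. Of all tested genes, 1.61% had both old values above both young values and 1.93% had both below. The log2 fold change was 0.76 with an SE of 1.02 (limma, adjusted p = 1.0; exact permutation p = 0.333). The ratio was 2.31 for Old 1 to Young 2 and 2.73 for Old 2 to Young 1, and their mean on the log2 scale exceeded that of 98.8% of the 9293 tested genes above 0 in every sample. The ratios within the ages were as large, at 2.29 for Old 1 to Old 2 and 2.72 for Young 2 to Young 1.

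The level of Gdf11 as a share of that of Mstn, which takes out the scale of a sample, was 9.16% (Old 1) and 7.89% (Old 2) in old muscle and 2.11% (Young 1) and 3.02% (Young 2) in young muscle. The ages did not overlap in this share (exact permutation p = 0.333, the smallest that 2 against 2 allows). The factor between samples of one age was larger for Gdf11 than for Mstn, so the share was not free of it.

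Tgfb1 encodes TGF-β1 and lies on chromosome 7 (mm10, chr7:25687002-25704996). Its FPKM was 2.78 (Old 1) and 0.941 (Old 2) in old muscle and 1.30 (Young 1) and 3.48 (Young 2) in young muscle, with the ages overlapping. It gave a log2 fold change of -0.24 with an SE of 1.01. The ratio was 0.799 for Old 1 to Young 2 and 0.725 for Old 2 to Young 1, so the old sample was the lower of each pair. As a share of Mstn, Tgfb1 gave 7.39% and 4.94% in Old 1 and Old 2 and 4.98% and 7.02% in Young 1 and Young 2, which overlapped (exact permutation p = 1.0). This share split the samples by their scale and not by their age.

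Acvr2a, a type II receptor that binds myostatin, GDF11 and activins, lies on chromosome 2 (mm10, chr2:48814109-48949267). Its FPKM was 11.6 (Old 1) and 5.03 (Old 2) in old muscle and 3.91 (Young 1) and 9.15 (Young 2) in young muscle. The ages overlapped, since Young 2 was above Old 2. In limma, the log2 fold change was 0.30 with an SE of 0.96. The ratio was 1.27 for Old 1 to Young 2 and 1.29 for Old 2 to Young 1, both above 1. The span given for this locus was shared with Orc4, a gene for an origin recognition complex subunit on the opposite strand whose end overlaps that of Acvr2a by 446 bases in the annotation. Orc4 had an FPKM of 8.90 (Old 1) and 1.78 (Old 2) in old muscle and 2.52 (Young 1) and 8.29 (Young 2) in young muscle, with ratios of 1.07 and 0.706. The study's methods name a stranded library kit and the labels a kit without that word, and whether reads were assigned by strand is not given in the sources used here. The part of Orc4 reads in the Acvr2a values was not tested.

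Tgfbr1, the type I receptor for TGF-β that can also serve myostatin, lies on chromosome 4 (mm10, chr4:47353234-47414924). Its FPKM was 12.0 (Old 1) and 6.20 (Old 2) in old muscle and 7.94 (Young 1) and 15.2 (Young 2) in young muscle, with the ages overlapping. Between ages, it had a log2 fold change of -0.32 with an SE of 0.95. The ratio was 0.786 for Old 1 to Young 2 and 0.782 for Old 2 to Young 1. The type II receptor and the type I receptor thus lay on opposite sides of 1 in both pairs. Acvr2a as a share of Tgfbr1 was 96.7% (Old 1) and 81.0% (Old 2) in old muscle and 49.2% (Young 1) and 60.1% (Young 2) in young muscle, without overlap between the ages (exact permutation p = 0.333). The factor between samples of one age was larger for Acvr2a than for Tgfbr1, so this share was not free of it either.

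Fst encodes follistatin, which binds myostatin, GDF11 and activins and keeps them from their receptors, and lies on chromosome 13 (mm10, chr13:114452262-114458730). Its FPKM was 1.70 (Old 1) and 0.470 (Old 2) in old muscle and 0.247 (Young 1) and 1.01 (Young 2) in young muscle. The ages overlapped, and the value passed 1 FPKM in 1 sample of each age. In the fit, its log2 fold change was 0.33 with an SE of 1.02. The ratio was 1.69 for Old 1 to Young 2 and 1.91 for Old 2 to Young 1, both above 1. Within the ages the ratios were larger, at 3.62 for Old 1 to Old 2 and 4.09 for Young 2 to Young 1, so the value of Fst moved more between samples of one age than that of any other gene of the 10 with a value above 0 in every sample. Fst as a share of Mstn was 4.53% (Old 1) and 2.47% (Old 2) in old muscle and 0.947% (Young 1) and 2.04% (Young 2) in young muscle, which moved between samples of one age as well.

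Fstl1, a secreted glycoprotein with a follistatin-like domain that is made by many cell types, lies on chromosome 16 (mm10, chr16:37777055-37836516). Its FPKM was 10.6 (Old 1) and 5.37 (Old 2) in old muscle and 7.33 (Young 1) and 13.6 (Young 2) in young muscle, with the ages overlapping. Its log2 fold change was -0.36 with an SE of 0.95. The ratio was 0.778 for Old 1 to Young 2 and 0.732 for Old 2 to Young 1, both below 1. Fstl1 kept almost a constant share of Mstn, at 28.2% (Old 1) and 28.2% (Old 2) in old muscle and 28.2% (Young 1) and 27.5% (Young 2) in young muscle.

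Fstl3, a further follistatin-like inhibitor of activin and myostatin, lies on chromosome 10 and had 7.71 FPKM in Old 1 and 11.1 FPKM in Young 2, but was listed at 0 in Old 2 and Young 1. The only ratio that could be formed was 0.694 for Old 1 to Young 2. The locus was reported with a span (mm10, chr10:79697305-80369637) that 46 loci shared, and all 46 were listed at 0 in both Old 2 and Young 1. Among them was Rps15, a ribosomal protein gene with 1919 FPKM in Old 1 and 1133 FPKM in Young 2. Across the values, 9 such spans with 67 loci were listed at 0 in the samples with the lower scale. Fstl3 therefore had 1 usable value per age, and its log2 fold change of -0.24 (SE of 1.01) includes the zeros.

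Smad2, one of the receptor-activated Smads of this branch, is encoded on chromosome 18 and had an FPKM of 3.30 (Old 1) and 1.62 (Old 2) in old muscle and 1.96 (Young 1) and 4.01 (Young 2) in young muscle, with the ages overlapping. With an SE of 1.01, its log2 fold change was -0.20. The ratio was 0.822 for Old 1 to Young 2 and 0.825 for Old 2 to Young 1, so the 2 pairs gave nearly the same value below 1.

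Smad7, the inhibitory Smad that TGF-β signaling itself induces, is encoded on the same chromosome and had an FPKM of 2.23 (Old 1) and 0.883 (Old 2) in old muscle and 1.65 (Young 1) and 3.71 (Young 2) in young muscle. The ages overlapped, with Old 1 above Young 1. The log2 fold change was -0.52 with an SE of 1.01, the lowest of the 10 genes. The ratio was 0.602 for Old 1 to Young 2 and 0.535 for Old 2 to Young 1, and the mean of both on the log2 scale exceeded that of only 6.3% of the tested genes above 0 in every sample. Smad7 as a share of Smad2 was 67.6% (Old 1) and 54.5% (Old 2) in old muscle and 84.1% (Young 1) and 92.5% (Young 2) in young muscle, without overlap between the ages (exact permutation p = 0.333). In all, 6 such shares between pairs of the genes were computed. The ages overlapped only in that of Tgfb1 to Mstn, and did not even in the nearly constant share of Fstl1 to Mstn. Over all genes, the log2 ratios of the 2 pairs lay within 0.25 of each other for 86.0% of 9293. A share without overlap is therefore no mark of age by itself. How often it occurs over all pairs of genes was not tested.

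**Figure D2:**
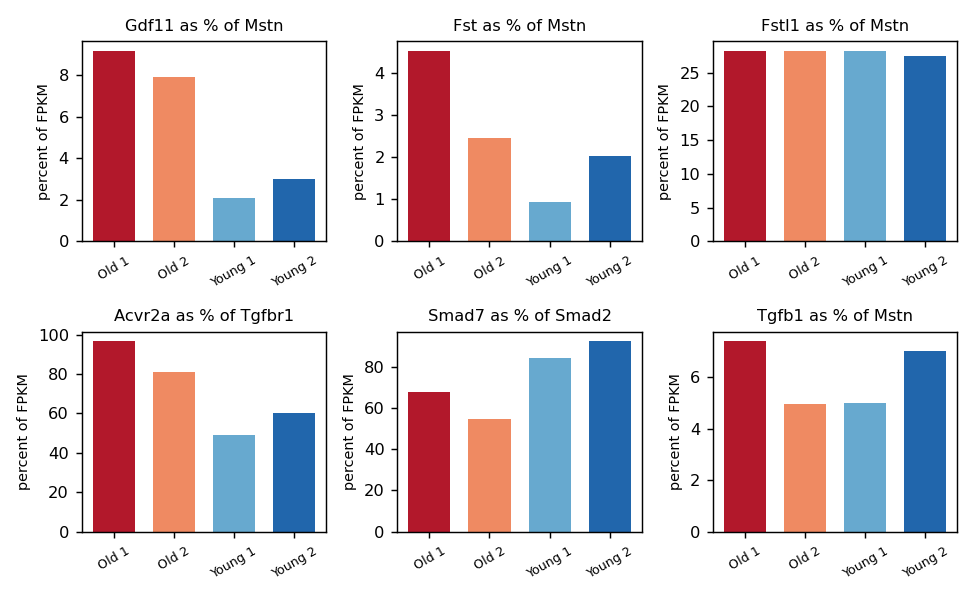
FPKM of one gene as a percent of the FPKM of another within each sample, with bars from 0 and 1 bar per sample. Gdf11 against Mstn, Fst against Mstn and Acvr2a against Tgfbr1 are higher in both old samples. Smad7 against Smad2 is lower, and Fstl1 against Mstn stays between 27.5% and 28.2%.

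Over the 9 genes with a value above 0 in every sample, 3 were higher in the old sample of both pairs (Gdf11, Fst and Acvr2a) and 6 were lower (Mstn, Tgfb1, Tgfbr1, Fstl1, Smad2 and Smad7). Of all 9293 tested genes above 0 in every sample, 45.5% were higher in both pairs and 48.6% were lower in both. Ratios of at least 1.5-fold in both pairs were met by 2 genes upward (Gdf11 and Fst), beside 6.64% of all these genes, and by 1 gene downward (Smad7), beside 9.37%. The median log2 ratio of the 9 genes was -0.32 and -0.36 in the pairs, against -0.01 and -0.02 over all of these genes. The remaining 5 lower genes lay close together, with mean log2 ratios from -0.42 for Mstn to -0.28 for Smad2. The log2 ratios of a gene in the 2 pairs differed by at most 0.24 among the 9 genes, and by a median of 0.05 over all genes. The study describes its mRNA-seq experiments as independent. If the samples of one age nevertheless came from 1 library, the pairs are not independent measurements.

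**Figure D3:**
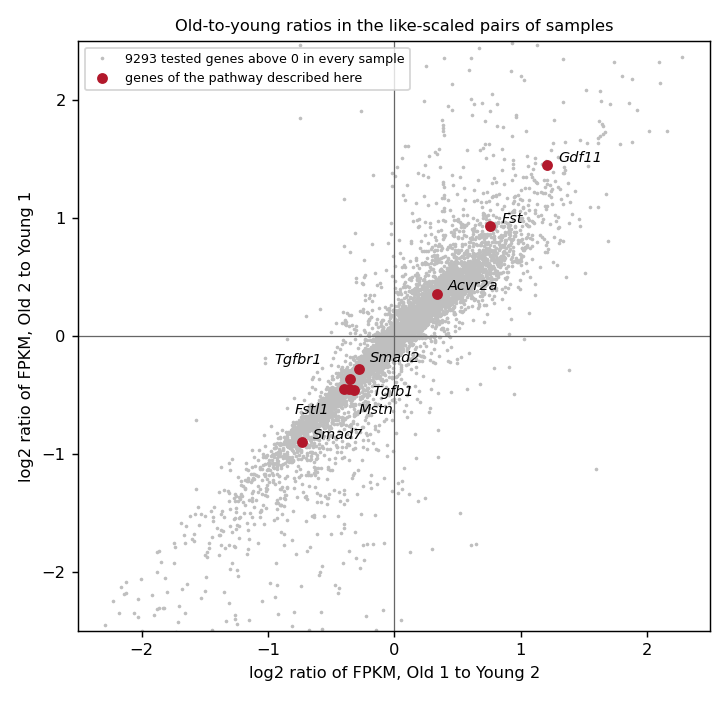
Log2 ratio of FPKM of Old 2 to Young 1 against that of Old 1 to Young 2, with 1 grey point for each of 9293 tested genes (110 lie outside the axes) and red points for 9 of the 10 genes described. Gdf11, Fst and Acvr2a lie above 0 on both axes and the other 6 below 0 on both.

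Whether a gene passed the test varied with how the samples were brought to one scale, among other settings. Scaling to the same median and quantile normalization called none of the 10 in limma. The adjusted p was 0.159 and 0.20 for Gdf11 and 0.524 and 0.148 for Mstn, beside 0.117% of all tested genes called higher and 0.127% lower with the same median and 1.16% and 1.83% with quantile normalization. The other scalings were chosen after the values were seen. With each sample scaled on genes of 10 to 30 FPKM, limma called Gdf11 higher (adjusted p = 0.0407) and Mstn (adjusted p = 0.0263), Tgfbr1 (adjusted p = 0.0451) and Fstl1 (adjusted p = 0.0409) lower, while 12.9% of all tested genes were called higher and 13.2% lower. With log2 values centred on the median deviation from the gene means, limma called only Mstn (adjusted p = 0.0267), beside 8.78% of genes higher and 11.0% lower. With scaling by the median of ratios, limma called none of the 10, beside 0.594% of genes higher and 0.731% lower. The adjusted p was then 0.0797 for Gdf11 and 0.0977 for Smad7. The directions of all 10 genes were the same in each of these fits as in the values as deposited. Since each age held a sample of either scale, scaling could hardly have changed them.

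Across the wider pathway, 110 genes were listed by role, of which 96 had a value and 63 were tested. None of the 63 had an adjusted p under 0.05 in the values as deposited (limma). Without adjustment, 0 had a p under 0.05 upward and 1 downward, which was Col1a1. The share of all tested genes at that unadjusted threshold is not given here. Of 61 with ratios in both pairs, 17 were higher and 41 lower in the old samples, and without the 10 genes described above the numbers were 14 and 35 of 52. Over all 9293 tested genes above 0 in every sample, 45.5% were higher and 48.6% lower in both pairs. At least 1.5-fold in both pairs, 4 of 61 were higher and 14 lower, beside 6.64% and 9.37% of all these genes. Without the 10 genes, 2 of 52 were at least 1.5-fold higher and 13 lower. The same shares over all genes apply to the counts by role below. Acvr2b, Tgfbr2, Smad3 and Smad6 were not analysed here.

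Among ligands, 8 had both ratios, with 4 higher and 3 lower. The TGF-β isoform gene Tgfb2 had 12.1 and 6.17 FPKM in Old 1 and Old 2 and 4.67 and 9.003 FPKM in Young 1 and Young 2, with ratios of 1.35 and 1.32. Tgfb3 had 18.7 and 9.65 FPKM in Old 1 and Old 2 and 6.14 and 11.6 FPKM in Young 1 and Young 2, with ratios of 1.61 and 1.57. Both of these isoforms were thus above 1 in each pair, where Tgfb1 was below 1. Inhba, which encodes an activin subunit, had 0.272 FPKM in Old 1 and 0.205 in Young 2 and was listed at 0 in the other samples.

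Among receptors and co-receptors, 2 of 11 were higher and 9 lower, and 3 of these were at least 1.5-fold lower. Acvr1b, a type I receptor used by activins and myostatin, had 27.7 and 14.5 FPKM in Old 1 and Old 2 and 22.3 and 42.5 FPKM in Young 1 and Young 2. Its ratios were 0.651 and 0.648, further below 1 than those of Tgfbr1. Acvr1b was above Tgfbr1 in level per length in every sample. Of 16 extracellular binding proteins, inhibitors and activators, 6 were higher and 8 lower.

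Among Smads and intracellular regulators, 4 of 12 were higher and 8 lower. Smad4, the common partner Smad, had 24.9 and 12.6 FPKM in Old 1 and Old 2 and 13.2 and 26.1 FPKM in Young 1 and Young 2, with ratios of 0.955 and 0.950. Skil, which encodes the Smad co-repressor SnoN and is itself a TGF-β target, had 4.56 and 1.64 FPKM in Old 1 and Old 2 and 4.66 and 10.4 FPKM in Young 1 and Young 2, with ratios of 0.439 and 0.352. Skil and Smad7, both feedback inhibitors, were thus the 2 genes of at least 1.5-fold lower ratios in this group. The 1 gene of at least 1.5-fold higher ratios was Tgif1, with 1.54 for Old 1 to Young 2 and 1.86 for Old 2 to Young 1.

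Of 14 transcriptional targets, 1 was higher and 13 lower in both pairs, and 7 were at least 1.5-fold lower. The median log2 ratios of the targets were -0.57 and -0.64, against -0.01 and -0.02 over all genes. The lowest were the fibrillar collagen genes. Col1a1 had 10.6 and 5.45 FPKM in Old 1 and Old 2 and 23.2 and 46.3 FPKM in Young 1 and Young 2, with ratios of 0.230 and 0.235. Both old values of Col1a1, Col1a2, Col3a1 and, narrowly, Postn were below both young values, which held for 1.93% of all tested genes. Col1a2 had ratios of 0.318 and 0.327, Col3a1 of 0.340 and 0.367, and the matricellular gene Postn of 0.481 and 0.360. Id4, below the filter, went the other way, with 1.49 and 0.257 FPKM in Old 1 and Old 2 and 0.0367 and 0.523 FPKM in Young 1 and Young 2.

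**Figure D4:**
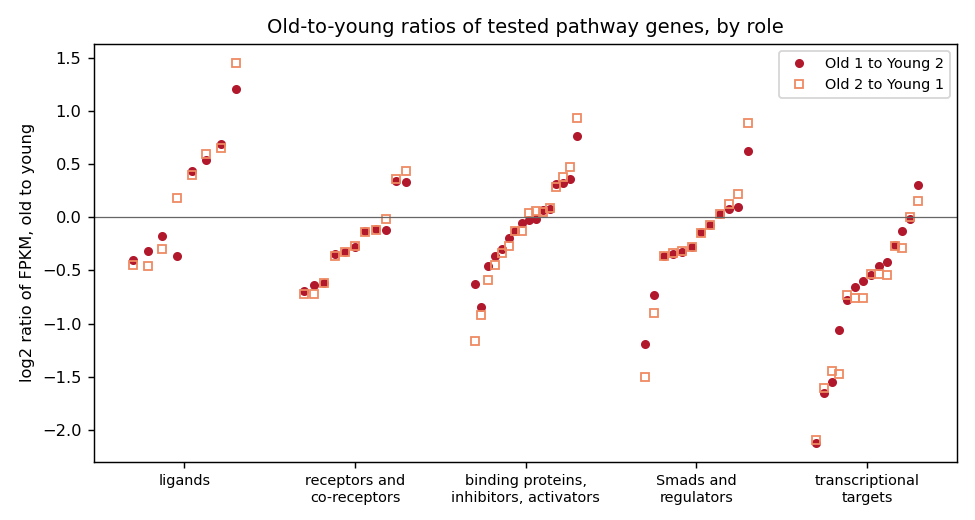
Log2 ratio of FPKM of old to young samples for each of 61 tested pathway genes by role, with filled circles for Old 1 to Young 2 and open squares for Old 2 to Young 1, ordered by the mean of both within a role. Of the transcriptional targets 13 of 14 lie below 0 in both pairs, while ligands lie on both sides.

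Whole muscle holds several cell types, and fewer cells of a type and less RNA per cell cannot be told apart. Markers of slow myofibers were higher in old muscle for 5 of 5 tested (limma, adjusted p under 0.05), beside 0.175% of all tested genes, with summed ratios of 16.0 and 15.1 in the pairs. These calls fell to 0 of 5 without a filter on low values, with the replicate number as a block and with any 1 sample left out, and to 2 of 5 with at least 1 FPKM required in every sample, without the trend or without genes at 0. The summed FPKM of 6 fibroblast and fibro-adipogenic markers had ratios of 0.650 and 0.649, but Col1a1 and Col3a1 are among the 6. The 4 fibroblast markers that are no collagens lay on both sides of 1, with ratios of 1.24 and 1.21 for Dcn, 1.16 and 1.18 for Pdgfra, 0.862 and 0.873 for Lum and 0.442 and 0.428 for Ly6a. Summed ratios were 0.804 and 0.797 for endothelial, 0.530 and 0.398 for macrophage and leukocyte, 0.678 and 0.653 for Schwann cell, 0.827 and 0.539 for tendon and 1.16 and 1.13 for satellite cell markers. Members of a list did not all move alike. Among endothelial markers, ratios were 1.03 and 1.0 for Kdr but 0.535 and 0.532 for Flt1. Among leukocyte markers, they were 1.47 and 1.25 for Ptprc, which was below the filter, but 0.385 and 0.310 for Mrc1. The adipocyte sum, in which Fabp4 is by far the highest, had ratios of 0.891 and 0.913, but of 4 tested adipocyte markers with both ratios 3 were higher and 1 lower in old muscle, with median log2 ratios of 0.44 and 0.47. Scx of the tendon list and Cfd of the adipocyte list were listed at 0 in Old 2 and Young 1. The part of these markers in the values of Mstn, Gdf11 and the other genes was not tested.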

How the data were processed

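TA muscle mRNA was sequenced in 2 Old and 2 Young samples, grouped by the age in the labels. After trimming and removal of PCR duplicates from the reads, the authors mapped the reads to mm10 with TopHat2 2.0.10 and RefSeq genes as a guide, and estimated the deposited FPKM values of each locus in Cufflinks, sample by sample. The submitters' processing notes name Cuffdiff 2.1.1. Incomplete last lines (1 per sample) and loci without a value in every sample were left out. Values hold no counts, so depth is unknown, and the precision is set by the 2 samples per age.

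Loci of one symbol were summed. log2(FPKM + 1) was fitted with limma 3.58.1 in R 4.3.3 (trend, two-sided, Benjamini-Hochberg, adjusted p under 0.05). Genes needed 1 FPKM or more in 2 or more samples, and fold changes on this scale understate changes of low genes. Exact permutation tests used scipy 1.17.1. The fits were tested on simulated data. Locus starts were counted from 0 and are printed counted from 1.

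The genes, lists and tests were chosen with earlier results of these data known. Besides the 10 genes, pathway genes were named that were partners by role or whose median-scaled means differed by a log2 ratio of at least 1.0 without overlap of the ages. Tgif1 was named outside this rule, as the gene of its list at least 1.5-fold higher in both pairs. Alternatives covered the pseudocount, filters, scaling, pairing and each sample left out.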

Additional observations from a re-analysis of the deposited data

How the results depend on the processing

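Of 143 fold changes of the 10 genes under alternatives that kept every sample, 14 passed the threshold. These 14 all came from alternatives added after seeing the data, and no alternative set beforehand called any of the 10 genes. In 64 of the 143 the alternative leaves the fold change as it is by construction. The other 79, from 8 alternatives of scaling or pseudocount, kept their direction. Each age held 1 sample of the higher and 1 of the lower scale, so scaling could move a fold change only little. The kept directions under scaling therefore say little. When 1 sample was left out, 16 of 40 changed direction. The log2 fold change then ran from -0.88 to 0.06 for Mstn, from -0.73 to 0.24 for Tgfb1, from -0.23 to 0.83 for Acvr2a, from -0.75 to 0.11 for Tgfbr1, from -0.11 to 0.77 for Fst, from -0.79 to 0.07 for Fstl1, from -2.04 to 1.56 for Fstl3 and from -0.58 to 0.18 for Smad2. Leaving out 1 sample leaves an age with samples of one scale only. Gdf11 (0.35 to 1.18) and Smad7 (-0.93 to -0.10) kept their sign.

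Counts of genes with an adjusted p under 0.05 in limma, 18 higher and 13 lower as deposited, were 2 to 6 higher and 3 to 10 lower with 1 sample left out. They were 0 and 0 without a filter on low values, 4 and 2 where each of the 4 samples had to reach 1 FPKM, 119 and 188 with quantile normalization (4 pathway genes lower), and, added after seeing the data, 4 and 2 without genes at 0. Scaling added after seeing the data gave 61 and 75 with the median of ratios (2 pathway genes lower), 75 and 129 with log2 values centred on the same median (3 pathway genes lower), 901 and 1128 with centring on the median deviation (1 of the 10 genes lower, 2 pathway genes higher and 14 lower), 1328 and 1351 on genes of 10 to 30 FPKM (1 of the 10 higher and 3 lower, 5 pathway genes higher and 22 lower), and 283 and 412 with the median of ratios without genes at 0 (1 of the 10 higher, which was Gdf11, and 1 pathway gene higher and 8 lower). The cause of these moves was not tested.

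A replicate block by the numbers in the labels gave 2 genes higher and 3 lower and called none of the 10. Deviations of same-numbered samples had a correlation of -0.885, so the numbers did not pair samples of like scale. With 2 samples per age, pairing Old 1 with Young 2 gives the same value with the opposite sign. It cannot show which samples were handled together. A crossed pairing (Old 1 with Young 2), chosen after seeing the data, called 2812 of 10266 tested genes higher and 3374 lower. Most tested genes were thus called. Of the 10 genes 2 were called higher and 6 lower, and of the 63 tested pathway genes 11 higher and 35 lower. Since most tested genes were called, a call by itself does not set a gene apart. Whether the split into higher and lower differs from that over all tested genes was not tested. Depth is unknown, and genes near 1 FPKM, among them Fst, Gdf11 and Smad7, differed more between samples of one age than Mstn did. So did Acvr2a, at a higher level.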
